A study of Mus musculus with 16 samples.

Results

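The last week of retinal organoid culture was examined by setting the 2 libraries of day 35 against the 2 libraries of day 28, within each of 2 stem cell sources. These are 4 of the 16 libraries of a mouse series of retinal organoids, stem cell aggregates that shape themselves into retina in culture, grown either from embryonic stem cells (ESCs) or from cells reprogrammed to pluripotency (iPSCs). The groups, each of 1 library, were ESC day 35, ESC day 28, iPSC day 35 and iPSC day 28. All carried the Nrlp-GFP transgene, a green fluorescent protein under the promoter of Nrl, and all were GFP+ cells taken by flow sorting, so the sort keeps whichever cells have that promoter on or still hold the protein. The ESCs came from blastocysts of Nrl-GFP mice, and the iPSCs from Nrl-GFP embryonic fibroblasts that received Oct3/4, Sox2, Klf4 and c-Myc on Dox-inducible lentiviral vectors. Both sources were differentiated by a modified SFEBq protocol. Retinoic acid was supplied until day 26, when the medium was replaced by one with serum, N-2 and B-27, so all 4 libraries were made after that change. The labels do not say which clone was used or whether the libraries come from separate cultures.

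Genes were followed where CPM, read counts scaled to library size, was at least 5 in at least 2 of the 4 libraries, which left 11230 of 32166 genes. A difference is day 35 minus day 28 on the log2(CPM + 1) scale, a scale that understates the change of low genes, and a gene is called higher or lower in a source when its difference is at least 1, a 2-fold step. With 1 library per source and day these classes carry no test. The test across genes was limma on log2(CPM + 1), fitted on all 16 libraries with Benjamini-Hochberg adjustment over 15202 genes. Its p-values measure the spread between libraries, which may be technical. For day 35 against day 28 this spread was pooled over all 16 libraries. For the difference between sources it came only from replicated groups, all of day 25 or earlier.

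Rods are the dim-light photoreceptors. After they leave the cell cycle under Nrl, Crx and Nr2e3, they build an outer segment, a modified cilium packed with discs in which the light signal passes through the G protein transducin on phosphodiesterase 6 to close cation channels. Cones share this scheme with their own set of proteins, and in the mouse many cells of the Nrl lineage pass through a stage with some S-cone gene expression. Müller glia are the radial glia of the retina and carry the water channel aquaporin-4 (Aqp4).

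Depth differed with day. The ESC library of day 35 had 13228176 estimated counts and that of day 28 had 4885342, and the iPSC library of day 35 had 14112064 and that of day 28 had 3866471, so that 1 estimated count was worth 0.0544, 0.157, 0.062 and 0.213 CPM in that order. Low values of day 28 are therefore the least precise, and the part of depth in the differences was not tested. In the ESC pair the difference went with GC content of the transcripts across 10896 genes (Spearman's rho -0.40), while rho was 0.14 in the iPSC pair. Crx, the photoreceptor factor, was abundant in all 4 libraries, at 874.5 CPM in ESC day 35, 1582 in ESC day 28, 2092 in iPSC day 35 and 2203 in iPSC day 28. Ddx3y, a Y-linked gene, was at 70.1 and 34.5 CPM in ESC days 35 and 28, against 0.87 and 0 CPM in iPSC days 35 and 28.

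The 2 sources differed mostly in which genes passed the 2-fold step. At least 2-fold, 840 genes (7.48% of those measured) were higher and 868 (7.73%) lower at day 35 than at day 28 in ESC-derived cells, and 265 (2.36%) were higher and 494 (4.4%) lower in iPSC-derived cells. The ESC split was 1111 higher and 767 lower with CPM rescaled to equal sums, and 744 higher and 251 lower in gene sums of TPM. In both sources 51 genes (0.454%) were higher and 79 (0.703%) were lower. ESC-derived cells alone accounted for 587 higher (5.23%) and 759 lower genes (6.76%), and iPSC-derived cells alone for 184 higher (1.64%) and 213 lower genes (1.9%). A further 202 genes (1.8%) were higher in ESC and lower in iPSC cells, and 30 genes (0.267%) went the other way. Of 362 genes past the step in both sources, 130 had the same sign. Across the 11230 genes, which are not independent replicates, the 2 differences had a Pearson r of -0.097 and the same sign in 47.4%, with SDs of 0.794 in ESC and 0.561 in iPSC cells.

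**Figure D1:**
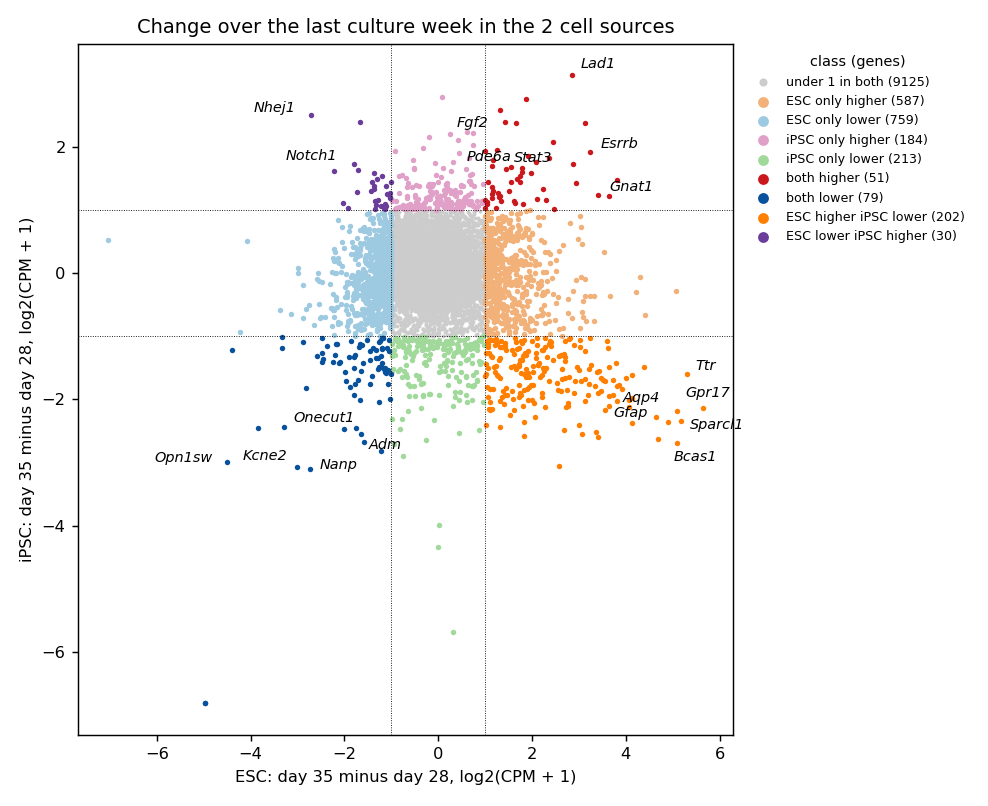
Difference of log2(CPM + 1), day 35 minus day 28, in ESC-derived cells (x axis) against iPSC-derived cells (y axis), 1 point per measured gene, coloured by class, with dotted lines at 1 and -1. The 202 genes higher in ESC and lower in iPSC cells outnumber the 51 higher and 79 lower in both, and the lowest point is a pair of predicted gene models with identical values.

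No gene passed limma for day 35 against day 28 with both sources combined (0 of 15202, or 0%, at an adjusted p under 0.05, with a smallest adjusted p of 0.302 and 707 genes at an unadjusted p under 0.05). edgeR (quasi-likelihood, estimated counts summed by gene) called 0 genes as well (421 at an unadjusted p under 0.05), and DESeq2 called 7: Onecut1, Bend5, Nanp and Smtnl2 lower, and Asprv1, Gsto1 and Ecm1 higher. The words higher and lower below are therefore descriptions of 2 pairs of libraries. At the edge of the classes, Kctd8 (1.00 in ESC, 1.94 in iPSC) was just inside the genes higher in both and Shisa6 (1.95 and 0.99) just outside. Pde6h (-3.34 and -1.02) was just inside the genes lower in both and Fgf11 (-1.24 and -0.999) just outside.

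Rod phototransduction genes were on the whole higher at day 35, led by members that had been low at day 28. Of the 21 genes of the list 20 were measured. Of these, 8 were higher in ESC cells (7.48% of all measured genes were) and 3 in iPSC cells (2.36% of all). None was lower, and 3 were higher in both (0.454% of all). The median difference was 0.64 in ESC and 0.54 in iPSC cells, beside -0.06 and 0.08 over all measured genes. Under each of 3 other scalings of CPM and in gene sums of TPM both medians of the list stayed above 0.

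Gnat1, the rod transducin alpha subunit (GRCm38 chr9:107674474-107679712, minus strand), had 139 CPM in ESC day 35 and 12.2 in ESC day 28, with 248 in iPSC day 35 and 104 in iPSC day 28. Both day 35 libraries lay above both day 28 libraries. The differences were 3.41 and 1.24, and limma's estimate over both sources was 2.33 (SE 0.594, adjusted p = 0.672). At day 25 Gnat1 had 11.5 CPM in the only ESC library and averaged 17.6 CPM in iPSC cells. The ESC level at day 28 was thus still close to that of day 25, while the iPSC level was well above it. Pde6a, the alpha subunit of rod phosphodiesterase 6, had 126 CPM in ESC day 35, 29.2 in ESC day 28, 226 in iPSC day 35 and 66.4 in iPSC day 28, differences of 2.08 and 1.75. Pde6b, its catalytic partner, was already high and differed little, with 667 and 742 CPM in ESC days 35 and 28, and 2002 and 1616 CPM in iPSC days 35 and 28. Gucy2f, a guanylate cyclase that restores the second messenger after light, had 34.7 CPM in ESC day 35, 1.86 in ESC day 28, 25.1 in iPSC day 35 and 10.2 in iPSC day 28. It was the third member higher in both.

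Several partners were higher in ESC cells alone at the 2-fold step, with iPSC differences of the same sign just under it. Slc24a1, the rod sodium-calcium-potassium exchanger, differed by 3.03 in ESC and 0.90 in iPSC cells. Cnga1, the rod channel's alpha subunit, differed by 1.71 and 0.77, and Rcvrn, the calcium sensor recoverin, by 1.51 and 0.65. Sag, the rod arrestin, was level, with 921 and 1096 CPM in ESC days 35 and 28, and 1217 and 1152 CPM in iPSC days 35 and 28. In this set the iPSC libraries had started from the higher day 28 levels. Whether any member's difference itself differed between the sources did not pass limma (adjusted p of the difference for Gnat1 0.795).

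**Figure D2:**
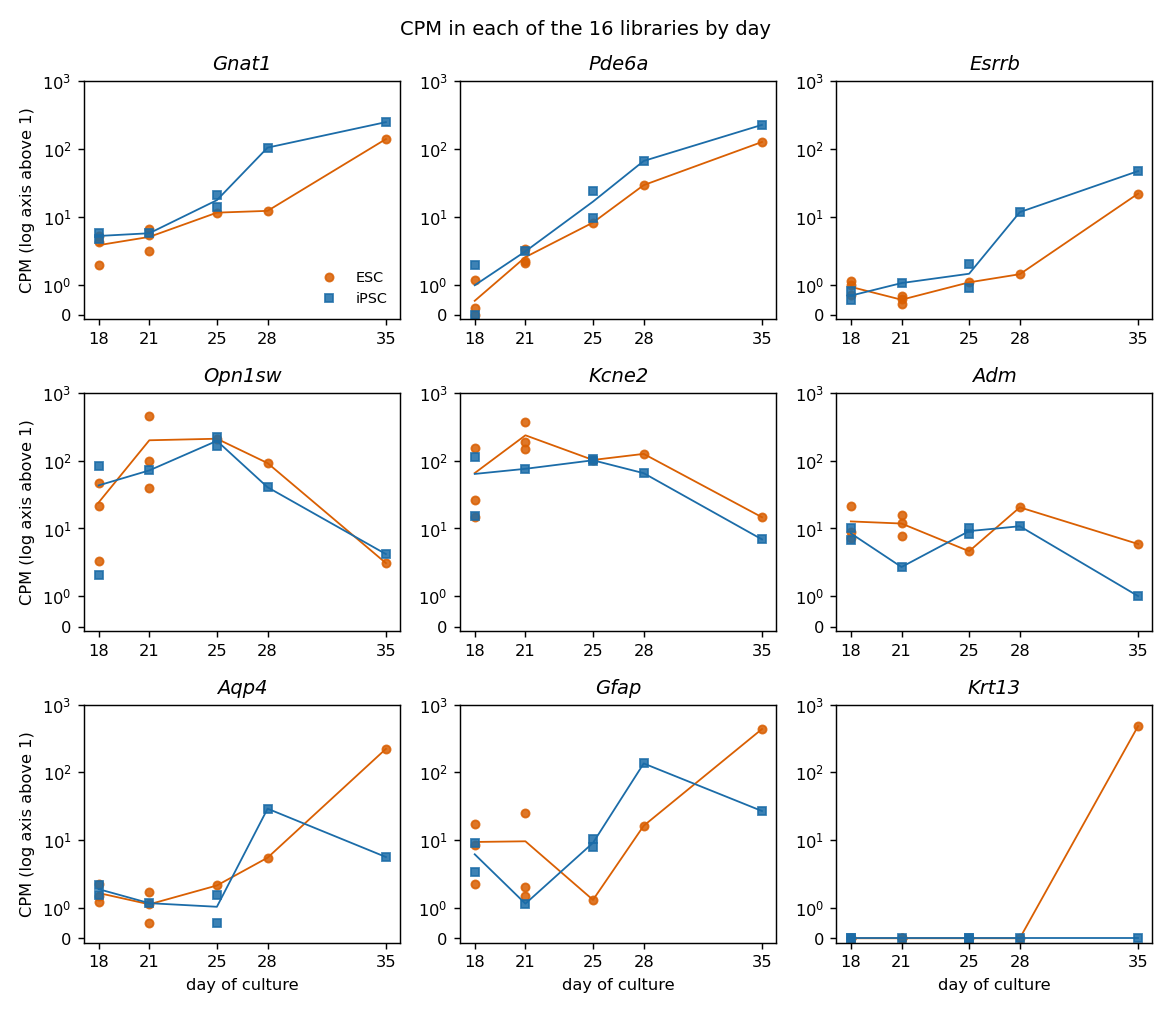
CPM of 9 genes in each of the 16 libraries against day of culture (circles ESC, squares iPSC, lines through the mean of each day, y axis logarithmic above 1 CPM). Gnat1, Pde6a and Esrrb are highest at day 35 in both sources, Opn1sw is below 5 CPM at day 35 in both, and Krt13 is above 0 in the ESC day 35 library alone.

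Fewer structural and synaptic genes passed the step. In the outer segment and cilium list, 2 of 30 measured members were higher in ESC cells, among them Impg1 (an interphotoreceptor matrix proteoglycan; 1.41), and 1 in iPSC cells, Aipl1 (a chaperone of phosphodiesterase 6; 1.20). These counts are near the shares of all measured genes that were higher, 7.48% in ESC and 2.36% in iPSC cells. Prph2, a disc rim protein, had 746 and 808 CPM in ESC days 35 and 28, and 2520 and 1943 CPM in iPSC days 35 and 28. Of 25 ribbon synapse genes, 2 were higher in both sources (0.454% of all measured genes were). Cabp4, a calcium-binding partner of the rod presynaptic calcium channel, had 17.7 CPM in ESC day 35, 3.74 in ESC day 28, 33.2 in iPSC day 35 and 10.4 in iPSC day 28. Cplx4, a retinal complexin, had 64.6 and 25.7 CPM in ESC days 35 and 28, and 119 and 50.9 CPM in iPSC days 35 and 28. For both genes, the 2 day 35 libraries lay above both day 28 libraries. Cacna1f, the pore of that channel, differed by 1.28 in ESC and 0.88 in iPSC cells.

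Esrrb, an orphan nuclear receptor of rods on chromosome 12 (GRCm38 chr12:86361117-86521628, plus strand), had the largest common difference among the regulators that were higher in both sources. It had 21.9 CPM in ESC day 35 and 1.42 in ESC day 28, with 47.1 CPM in iPSC day 35 and 11.7 in iPSC day 28, differences of 3.24 and 1.92. In the libraries before day 28 it lay between 0.35 and 2.00 CPM. Mef2c, a MADS-box factor, was the other regulator higher in both (5.56, 1.23, 6.69 and 1.82 CPM in ESC day 35, ESC day 28, iPSC day 35 and iPSC day 28). In ESC cells 7 of 17 regulators were lower (7.73% of all measured genes were), among them Nr2e3 (-1.97), Prdm1 (-1.79), Neurod1 (-1.79) and Otx2 (-1.55). The list's median was -0.85. In iPSC cells none of the 17 was lower and the median was 0.17. Nr2e3, the Nrl target that represses cone genes, had 256 and 1003 CPM in ESC days 35 and 28, and 1489 and 1498 CPM in iPSC days 35 and 28. Nrl itself had 556 and 1067 CPM in ESC days 35 and 28, against 1860 and 1921 CPM in iPSC days 35 and 28. The ESC day 35 library was the lowest of the 4 for both genes. The difference between the sources did not pass limma for Nr2e3 (adjusted p = 0.982) or Nrl (0.991).

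Outside these lists, the genes most clearly higher in both sources were of mixed function. Lad1, ladinin, an anchoring-filament protein (GRCm38 chr1:135818598-135833342, plus strand), had 12.1 CPM in ESC day 35, 0.81 in ESC day 28, 14.0 in iPSC day 35 and 0.71 in iPSC day 28, with 5 and 3 estimated counts behind the 2 day 28 values. Its differences of 2.85 and 3.13 were alike, with an adjusted limma p of 0.309. Syngr3, a synaptic vesicle protein, differed by 3.13 and 2.38, and Kcng4, a modulatory potassium channel subunit, by 1.86 and 2.76. Tyro3, a receptor tyrosine kinase, differed by 2.36 and 1.83, and Trim36, a ubiquitin ligase, by 1.91 and 1.85. Gpr152, an orphan receptor, differed by 2.45 and 2.08, Grhl1, a grainyhead-like factor, by 2.88 and 1.73, and Shtn1, the axonal protein shootin, by 1.78 and 1.66.

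Cone genes were lower at day 35, in more members in ESC than in iPSC cells. Of 15 genes in the cone list 13 were measured, 10 were lower in ESC cells (7.73% of all measured genes were) and 5 in iPSC cells (4.4% of all), and the same 5, Opn1sw, Kcne2, Pde6c, Pde6h and Ccdc136, were lower in both. The median difference was -1.92 in ESC and -0.76 in iPSC cells and stayed below 0 under every scaling run. The summed level of the list was 824 and 2545 CPM in ESC days 35 and 28, but 1878 and 1763 CPM in iPSC days 35 and 28, so the iPSC sum was not lower at day 35. Gnb3, a cone transducin beta subunit and one of its most abundant members, had 530 and 1187 CPM in ESC days 35 and 28, and 1305 and 744 CPM in iPSC days 35 and 28. Opn1sw, S-opsin (GRCm38 chr6:29376671-29388468, minus strand), had 3.09 CPM in ESC day 35 and 92.0 in ESC day 28, with 4.20 CPM in iPSC day 35 and 40.5 in iPSC day 28. Both day 35 libraries lay below both day 28 libraries. The differences were -4.51 and -3.00. Day 25 had 210 CPM in its only ESC library and averaged 196 CPM in iPSC cells, so S-opsin was lower at each of the last 2 steps in both sources. The adjusted limma p was 0.968 with an unadjusted p of 0.0164.

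Kcne2, an accessory subunit of potassium channels held in the cone list (GRCm38 chr16:92292389-92298129, plus strand), had 14.7 CPM in ESC day 35, 126 in ESC day 28, 6.91 in iPSC day 35 and 65.3 in iPSC day 28. Its differences of -3.02 and -3.07 were nearly equal. Pde6c, the cone phosphodiesterase, had 3.09 and 14.2 CPM in ESC days 35 and 28, and 1.88 and 6.197 CPM in iPSC days 35 and 28. Gngt2, the cone transducin gamma subunit, had 86.0 and 549 CPM in ESC days 35 and 28, and 236 and 417 CPM in iPSC days 35 and 28, passing the step in ESC cells alone. Not all members shared the direction. Arr3, the cone arrestin, differed by -1.47 in ESC and 0.70 in iPSC cells at levels under 7 CPM, and Thrb, the thyroid hormone receptor of M cones, by 0.14 and 0.17. Gnat2, the cone transducin alpha subunit, was under the step at -0.22 and -0.52. M-opsin, Opn1mw, was listed at 0 in all 4 libraries. In bulk samples, fewer cells of a type and less RNA per cell cannot be told apart.

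Hypoxia-response genes were lower at day 35 chiefly in iPSC cells, where more members passed the step than in ESC cells. Of 16 measured hypoxia genes 2 were lower in ESC cells (7.73% of all measured genes were) and 10 in iPSC cells (4.4% of all), with none higher. The medians were -0.54 in ESC and -1.10 in iPSC cells. In gene sums of TPM, with 7 genes of the list, they were -0.08 and -1.06. Adm, the vasodilator peptide adrenomedullin, had 5.91 CPM in ESC day 35, 20.5 in ESC day 28, 1.009 in iPSC day 35 and 10.8 in iPSC day 28. Ankrd37, a small ankyrin-repeat protein induced at low oxygen, had 19.1 and 44.6 CPM in ESC days 35 and 28, and 32.5 and 67.7 CPM in iPSC days 35 and 28. Hilpda, a lipid-droplet protein also induced at low oxygen though not on the list used, had 6.98 and 26.4 CPM in ESC days 35 and 28, and 8.89 and 32.4 CPM in iPSC days 35 and 28. For these 3 genes each day 35 library lay below the day 28 library of its source. Pdk1, which blocks entry of pyruvate into mitochondria, differed by -0.57 in ESC and -1.37 in iPSC cells, and Bnip3, a mitophagy receptor, by -0.73 and -1.56. Vegfa, the vascular growth factor, did not follow (-0.55 and 0.19).

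Among 21 glycolysis and lactate genes, 6 were lower in ESC cells (7.73% of all measured genes were) and 2 in iPSC cells (4.4% of all). The 2 were lower in both. Slc2a1, the glucose transporter GLUT1, had 344 and 942 CPM in ESC days 35 and 28, and 469 and 1102 CPM in iPSC days 35 and 28. Slc16a3, a lactate exporter, had 63.9 and 161 CPM in ESC days 35 and 28, and 86.6 and 203 CPM in iPSC days 35 and 28. Ldha, which makes lactate, differed by -1.28 in ESC and -0.53 in iPSC cells, and Pkm, the last step of glycolysis, by -1.30 and -0.47. The list medians were -0.56 and -0.47. In gene sums of TPM, with 15 genes of the list, they were -0.15 and -0.45. Set against day 25 in place of day 28, the hypoxia medians were -0.19 in ESC and -0.71 in iPSC cells and the glycolysis medians -0.34 and 0.08.

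The promoters of Ankrd37, Slc2a1, Slc16a3, Hilpda and Adm, all lower in both sources, are shown because the core of the hypoxia-response element, ACGTG on either strand (its complement CACGT), could be looked for in them. Each is the 250 bases before a RefSeq start site (GRCm38.p6), printed 5′ to 3′ on the gene's strand with matches in capitals: Ankrd37 at chr8:45999851-46000100 (minus strand), Slc2a1 at chr4:119108495-119108744, Slc16a3 at chr11:120948817-120949066, Hilpda at chr6:29272376-29272625 and Adm at chr7:110627407-110627656 (all plus strand).
Ankrd37: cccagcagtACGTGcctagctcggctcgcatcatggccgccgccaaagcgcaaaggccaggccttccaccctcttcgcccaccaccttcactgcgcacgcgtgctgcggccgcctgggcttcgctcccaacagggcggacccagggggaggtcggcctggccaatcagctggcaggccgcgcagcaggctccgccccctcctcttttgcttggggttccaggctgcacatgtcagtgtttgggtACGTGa
Slc2a1: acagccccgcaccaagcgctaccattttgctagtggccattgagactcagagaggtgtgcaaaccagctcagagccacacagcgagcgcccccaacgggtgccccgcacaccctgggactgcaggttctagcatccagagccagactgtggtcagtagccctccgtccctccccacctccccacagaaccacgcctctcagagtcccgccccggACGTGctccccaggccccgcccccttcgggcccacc
Slc16a3: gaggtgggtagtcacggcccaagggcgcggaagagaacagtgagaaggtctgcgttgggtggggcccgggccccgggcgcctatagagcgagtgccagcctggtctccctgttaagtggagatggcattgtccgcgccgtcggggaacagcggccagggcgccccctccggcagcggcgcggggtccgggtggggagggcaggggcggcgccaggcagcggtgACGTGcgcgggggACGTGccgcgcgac
Hilpda: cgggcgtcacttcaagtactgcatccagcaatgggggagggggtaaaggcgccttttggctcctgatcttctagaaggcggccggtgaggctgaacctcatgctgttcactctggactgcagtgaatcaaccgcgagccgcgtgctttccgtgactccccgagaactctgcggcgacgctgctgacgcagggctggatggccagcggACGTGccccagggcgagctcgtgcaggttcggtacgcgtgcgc
Adm: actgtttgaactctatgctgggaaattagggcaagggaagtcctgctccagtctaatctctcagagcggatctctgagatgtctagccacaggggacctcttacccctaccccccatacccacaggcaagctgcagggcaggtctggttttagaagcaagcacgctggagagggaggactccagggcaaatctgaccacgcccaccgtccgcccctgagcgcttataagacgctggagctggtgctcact
Ankrd37 and Slc16a3 had 2 matches each, Slc2a1 and Hilpda 1 each, and Adm none. A second annotated start of Hilpda had none either. Of all 32851 RefSeq windows of this length 16.6% held the motif. By gene, 26.7% of the 45 lower-in-both genes with a window held it, beside 25.9% of 8543 measured genes. Among the hypoxia list 10 of 14 genes with a window did. A match describes letters and is not a site, and nothing about the factor follows from its absence. The core of the Crx motif, TAATCC on either strand, was in 4 of 30 higher-in-both genes and 1 of 45 lower-in-both genes with a window, beside 6.34% of measured genes.

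Other genes lower in both sources were of mixed function. Onecut1, a factor of horizontal cells and early precursors, had 0.95 CPM in ESC day 35, 18.0 in ESC day 28, 2.75 in iPSC day 35 and 19.4 in iPSC day 28, differences of -3.29 and -2.44. It had been between 28.4 and 70.3 CPM in day means up to day 25, and DESeq2 called it (adjusted p = 0.0025), while limma did not (0.43). Cyp26b1, the enzyme that breaks down retinoic acid, had 5.69 and 45.9 CPM in ESC days 35 and 28, and 2.53 and 11.5 CPM in iPSC days 35 and 28. At day 25, 1 day before retinoic acid was last supplied, it had 361 CPM in the only ESC library and averaged 153 CPM in iPSC cells. At day 21, also under retinoic acid, it had 15.3 CPM in iPSC cells and 318, 47.1 and 277 CPM in ESC replicates 1, 2 and 3. A link to the supply of retinoic acid was not tested. Smtnl2, a smoothelin-like protein, differed by -2.01 and -2.47, and Nanp, a sialic acid synthesis phosphatase, by -2.73 and -3.11 from day 28 values of 7.45 and 10.0 CPM. Stbd1, a glycogen-binding protein, differed by -1.87 and -1.80, Tead2, a Hippo pathway factor, by -1.96 and -1.71, and Spp1, osteopontin, by -1.76 and -2.45. Fos, an immediate early factor, had 21.4 and 72.4 CPM in ESC days 35 and 28, and 38.3 and 126 CPM in iPSC days 35 and 28.

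Of 26 measured cell cycle genes 9 were lower in ESC cells (7.73% of all measured genes were) and 6 in iPSC cells (4.4% of all). Mki67, Cdk1 and Ccnd1 were lower in both. Mki67, the proliferation antigen, had 35.3 and 84.2 CPM in ESC days 35 and 28, and 1.20 and 5.14 CPM in iPSC days 35 and 28, so ESC day 35 stood above iPSC day 28. Ccna2, cyclin A2, was instead higher in iPSC cells, with 76.1 and 28.6 CPM in iPSC days 35 and 28. Ribosomal protein genes were lower chiefly in ESC cells: 22 of 32 measured genes in ESC and 1 in iPSC cells, with medians of -1.35 and -0.57. All 13 mitochondrially encoded genes had negative differences in both sources, none past the step, with medians of -0.32 and -0.47, and in ESC cells their median was 0.00 in gene sums of TPM.

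**Figure D3:**
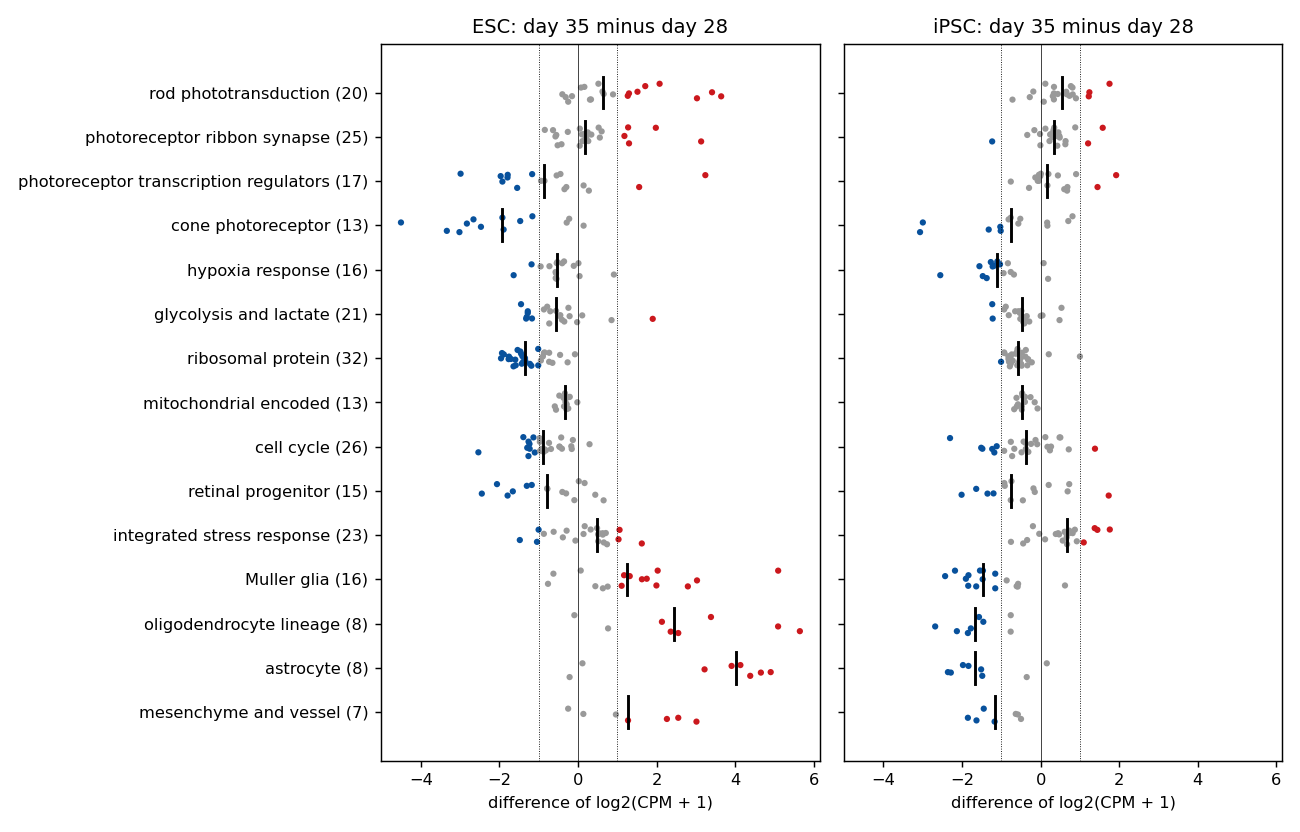
Difference of log2(CPM + 1), day 35 minus day 28, of every measured member of 15 gene lists (number measured in brackets), ESC left and iPSC right. Red points are at or above 1, blue points at or below -1, black bars are medians, and vertical scatter has no meaning. Cone and ribosomal protein medians are below 0 in both panels, while the 4 lowest lists (Müller glia, oligodendrocyte lineage, astrocyte, mesenchyme and vessel) are above 1 in ESC and below -1 in iPSC cells.

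Glial genes were higher at day 35 than at day 28 in ESC cells and lower in iPSC cells. Of 20 Müller glia genes 16 were measured. Of these, 10 were higher in ESC cells (7.48% of all measured genes were) and none lower. In iPSC cells 11 were lower (4.4% of all) and none higher, and 8 did both (1.8% of all). Medians were 1.24 in ESC and -1.47 in iPSC cells, and 2.69 and -0.75 against day 25 in place of day 28. Aqp4 had 222 CPM in ESC day 35 and 5.54 in ESC day 28, against 5.67 CPM in iPSC day 35 and 29.2 in iPSC day 28, and its day means up to day 25 lay between 1.05 and 2.16 CPM. The ESC day 35 library was the highest of all 16. The difference of the 2 differences was 7.27 ± 0.857 (SE) and passed limma (adjusted p = 0.0215, and 0.0022 to 0.71 over its alternatives). Slc1a3, the glial glutamate transporter, had 241 and 33.9 CPM in ESC days 35 and 28, against 8.11 and 27.4 CPM in iPSC days 35 and 28. Ptn, pleiotrophin, and Sparc, a matrix protein, also differed by more than 1 in opposite ways (1.32 and -2.43, and 2.03 and -1.47). Glul, glutamine synthetase, differed by 0.44 and -0.61, under the step in both. Over the whole list the summed level was 2955 and 1306 CPM in ESC days 35 and 28, and 344 and 755 CPM in iPSC days 35 and 28, with 432 to 1667 CPM in the other 12 libraries and no member at 0.

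Genes of other glia followed, on 2 lists added after the values were seen. Of 13 oligodendrocyte-lineage genes 8 were measured, and 6 were higher in ESC and 6 lower in iPSC cells. Of 10 astrocyte genes 8 were measured with 6 and 6. Over all measured genes 7.48% were higher in ESC and 4.4% lower in iPSC cells. Against day 25 in place of day 28, the iPSC medians were -0.09 for the oligodendrocyte list and -0.05 for the astrocyte list, and the ESC medians 2.76 and 4.13. Gpr17, a receptor of committed oligodendrocyte precursors, had 49.1 CPM in ESC day 35 and 0 in ESC day 28, at least 104-fold higher against a floor of 3 counts in that library, and 0.83 CPM in iPSC day 35 and 7.03 in iPSC day 28. No library up to day 25 exceeded 0.419 CPM. Bcas1, a myelin-forming cell protein, had 33.1 CPM in ESC day 35 and 0 in ESC day 28, at least 70.4-fold higher, and 1.26 CPM in iPSC day 35 and 13.5 in iPSC day 28. Gfap, the intermediate filament of astrocytes and stressed Müller glia (GRCm38 chr11:102887336-102900912, minus strand), had 436 and 16.4 CPM in ESC days 35 and 28, against 27.0 and 135.5 CPM in iPSC days 35 and 28. The highest library was that of day 35 among ESC cells and that of day 28 among iPSC cells. Sparcl1, a matrix protein of astrocytes, had 283 and 6.89 CPM in ESC days 35 and 28, and 11.8 and 64.3 CPM in iPSC days 35 and 28. Adcyap1r1, the PACAP receptor, had 63.8 and 1.52 CPM in ESC days 35 and 28, and 1.83 and 16.5 CPM in iPSC days 35 and 28. Ttr, transthyretin, a member of the pigment epithelium list, had 2072 and 51.7 CPM in ESC days 35 and 28, and 91.3 and 277 CPM in iPSC days 35 and 28. The whole pigment list summed to 2204 CPM in ESC day 35, so most of that sum was Ttr.

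The test of the difference between the sources called 17 of 15202 genes (0.112%), all with the larger day 35 minus day 28 difference in ESC cells, while 923 genes had an unadjusted p under 0.05. Beside Gpr17 (7.78 ± 0.627 SE, adjusted p = 0.0054), Bcas1, Aqp4 and 2 further glial genes, Agt (angiotensinogen; 5.74) and Gpr37l1 (a glial receptor; 3.87), they included Enpp6 (a marker of new oligodendrocytes; 3.76) and Plxnb3 (a plexin; 4.39). Another set was epithelial: Anxa1 (annexin A1; 7.15), Dsp (desmoplakin; 6.22), Krt7 (keratin 7; 5.90), Gjb2 (connexin 26; 5.16), Asprv1 (a skin protease; 5.05), Dsc2 (a desmosomal cadherin; 4.56) and Il1rn (the interleukin-1 receptor antagonist; 4.12). Gsto1 (a glutathione transferase; 5.36), Aplnr (the apelin receptor; 5.02) and Pamr1 (4.03) completed the list. Krt7 had 120.5 and 0.63 CPM in ESC days 35 and 28, against 0.77 and 0.42 CPM in iPSC days 35 and 28. Gsto1 had 339 and 9.12 CPM in ESC days 35 and 28, against 5.04 and 6.39 CPM in iPSC days 35 and 28. The ESC day 35 library is the high one in each. Most of the 17 were near 0 elsewhere: 15 had a median under 1 CPM over the 16 libraries, and 9 reached 1 CPM in exactly 2 libraries, the fewest the filter allows. Their spread is then mainly that of values near 0, and with a filter of 5 CPM in 2 of the 4 libraries limma called 1 gene. The count depended on the settings. edgeR, with 9261 genes tested, called 1 gene, Gsto1. DESeq2, with as many tested, called 7, of which Gsto1 alone was among the 17. limma called 0 at a pseudocount of 0.1, 2 with ESC day 18 replicate 1 or ESC day 21 replicate 2 left out, and 45 without ESC day 18 replicate 2.

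**Figure D4:**
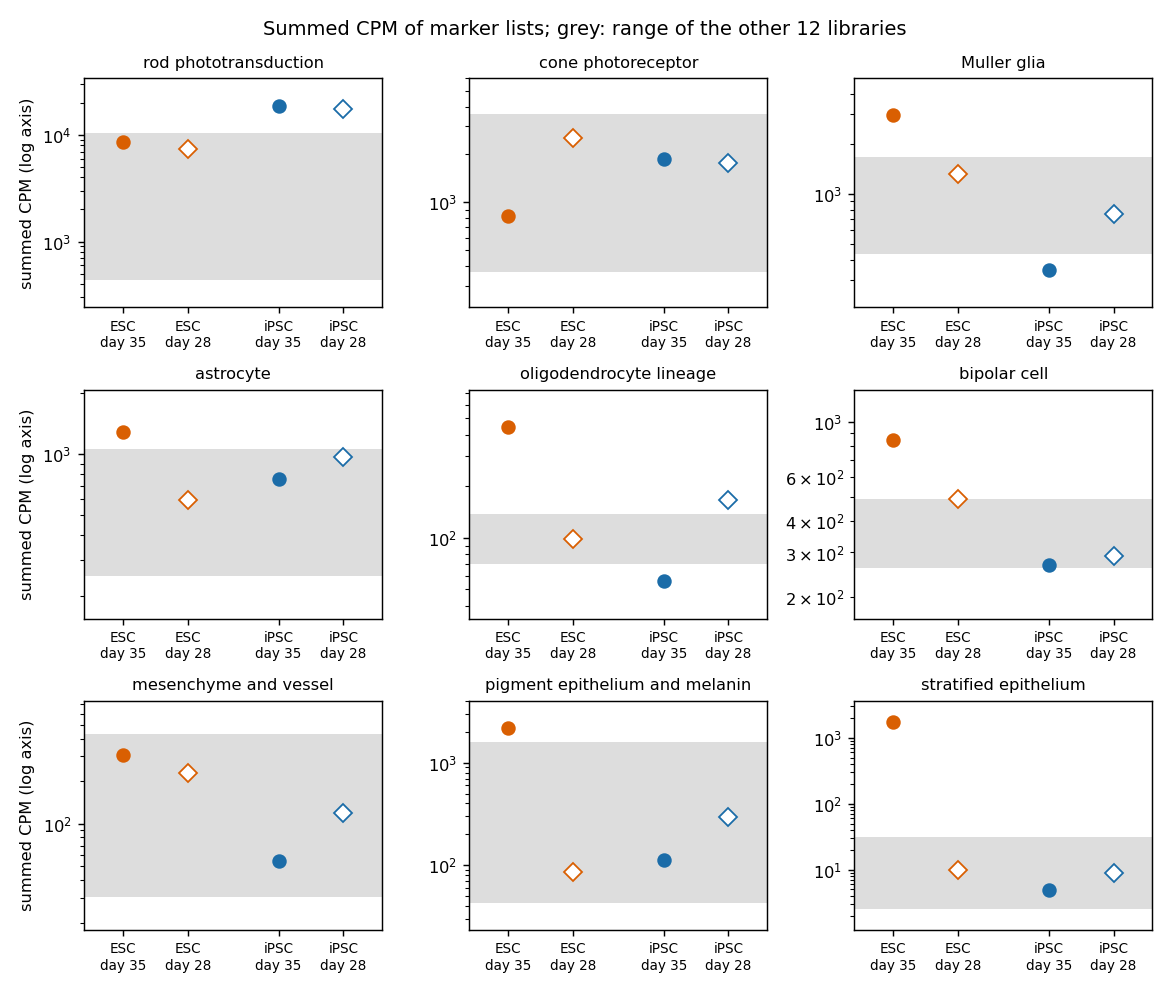
Summed CPM of 9 marker lists (log axes) in the ESC pair (orange) and the iPSC pair (blue), filled circles for day 35 and open diamonds for day 28, with the range of the other 12 libraries in grey. ESC day 35 is above that range for Müller glia, astrocyte, oligodendrocyte, bipolar, pigment and stratified epithelium lists, and iPSC day 35 is below it for Müller glia and oligodendrocyte lists. The pigment sum of ESC day 35 is mostly Ttr.

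The ESC day 35 library also held transcripts of other epithelia and retinal neurons that the class filter leaves out, because among the 4 libraries they are high in that one alone. There were 91 genes at 5 CPM or more in ESC day 35 and under 1 CPM in each of the other 15 libraries, where the same count ran from 0 to 6. Among the highest were Sprr2a2 (764 CPM), Krt13 (481 CPM, and 0 in all other libraries), Krt4 (293 CPM) and Krt6a (224 CPM), cornified-envelope and keratin genes of stratified epithelium. Genes of a stratified epithelium list chosen after the values were seen summed to 1757 CPM in ESC day 35 and 9.78 in ESC day 28, and to 4.88 and 8.84 CPM in iPSC days 35 and 28, with 2.54 to 31.5 CPM elsewhere. Bipolar cell genes stood out too. Grm6, the metabotropic receptor of ON bipolar cells, had 78.8 and 1.15 CPM in ESC days 35 and 28, and 1.23 and 0 CPM in iPSC days 35 and 28. Isl1, an ON bipolar factor, had 49.5 and 1.07 CPM in ESC days 35 and 28, and 1.19 and 0 CPM in iPSC days 35 and 28. Neither reached 5 CPM in 2 of the 4 libraries, so neither is in a class, and neither difference between sources passed limma (adjusted p = 0.0724 for Grm6 and 0.939 for Isl1). In the bipolar list, 10 of 21 genes were measured, with 6 higher and 3 lower in ESC cells, and 1 higher and 1 lower in iPSC cells. Over all measured genes 7.48% were higher and 7.73% lower in ESC cells, and 2.36% and 4.4% in iPSC cells. Trpm1, the ON bipolar channel, was higher in both (2.48 and 1.02), and Pcp2, also of ON bipolar cells, lower in both (-1.99 and -1.57). The share of these other-cell transcripts in the ESC differences was not tested. They stand beside the lower Nrl and Nr2e3 values of the same library. Ribosomal protein genes summed to nearly the same level in both day 35 libraries, 4710 CPM in ESC and 4765 CPM in iPSC cells. At day 28 they summed to 11280 CPM in ESC and 7332 CPM in iPSC cells.

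Among genes of one source only, Gria2, an AMPA receptor subunit, was among those higher in ESC cells alone (145 and 6.84 CPM in ESC days 35 and 28, and 9.75 and 12.3 CPM in iPSC days 35 and 28), together with Snhg11, a neuronal noncoding RNA (4.40 and -0.66), Ahnak, a giant scaffold protein (3.67 and -0.36), Hspb8, a small heat shock protein (3.32 and -0.75), and Calml4, a calmodulin-like protein (3.14 and -0.77). Lower in ESC cells alone were Slc6a2, the noradrenaline transporter, with 4.35 and 89.4 CPM in ESC days 35 and 28 against 70.8 and 49.7 CPM in iPSC days 35 and 28, Epha8, an ephrin receptor (-4.23 and -0.94), and Rax, the eye field homeobox factor (-2.99 and 0.01). Pold1, a DNA polymerase subunit (-2.13 and 0.84), and Dll1, a Notch ligand (-2.06 and 0.73), were of the same kind. Rps12 was at 0 in ESC day 35 and 131 CPM in ESC day 28, but near-identical copies can split its reads, so its value is uncertain. Genes lower in ESC cells alone had a median GC content of 56.4%, against 50.6% over all genes.

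Genes higher in iPSC cells alone included some of stress and injury responses. Over all measured genes 7.48% were higher and 7.73% lower in ESC cells, and 2.36% and 4.4% in iPSC cells. Of 23 measured integrated stress response genes 3 were higher and 3 lower in ESC cells, and 4 were higher and none lower in iPSC cells. Slc7a5, an amino acid transporter, was the 1 member higher in both, with 124 and 59.0 CPM in ESC days 35 and 28, and 223 and 81.5 CPM in iPSC days 35 and 28. Trib3, a stress-induced pseudokinase, had 14.9 and 11.7 CPM in ESC days 35 and 28, and 55.1 and 15.6 CPM in iPSC days 35 and 28. Chac1, which degrades glutathione, differed by 0.49 in ESC and 1.38 in iPSC cells. Of 8 measured retinal injury genes 3 were higher and none lower in ESC cells, and 4 were higher and 3 lower in iPSC cells. The members lower in iPSC cells were Gfap and the metallothioneins Mt1 (0.39 in ESC and -1.65 in iPSC cells) and Mt2 (0.35 and -1.97). Fgf2, a survival factor induced in stressed photoreceptors, had 9.71 and 8.04 CPM in ESC days 35 and 28, and 31.1 and 5.96 CPM in iPSC days 35 and 28. Stat3, the cytokine-signalling factor (GRCm38 chr11:100885098-100939540, minus strand), was higher in both, with 152 and 54.9 CPM in ESC days 35 and 28, and 192 and 60.8 CPM in iPSC days 35 and 28. Socs3, a Stat3 target and inhibitor, differed by -0.85 in ESC and 1.54 in iPSC cells. Its iPSC sign was not kept against day 25 (-0.30). Rnd1, a small GTPase (-0.93 and 1.94), Rfx2, a ciliary transcription factor (-0.20 and 2.15), Scube1, a secreted glycoprotein (-0.32 and 1.99), Tbl3, a ribosome biogenesis protein (-0.77 and 1.56), and Pcdhga8, a clustered protocadherin (0.09 and 2.79), were the largest by the difference between sources.

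Lower in iPSC cells alone were Gfra1, the GDNF co-receptor, with 23.8 and 11.7 CPM in ESC days 35 and 28 against 1.72 and 10.2 CPM in iPSC days 35 and 28, Nrn1, neuritin (0.44 and -2.54), Mgat4a, a glycosyltransferase (0.72 and -2.01), Prdm16, a chromatin regulator (0.61 and -2.05), and Cnp, a myelin protein (0.77 and -1.78). Eif4a-ps4, a pseudogene with near-identical relatives and an uncertain value, was at 0 in iPSC day 35 and 50.3 CPM in iPSC day 28. The 30 genes lower in ESC and higher in iPSC cells were led by Nhej1, a DNA end-joining factor (-2.71 and 2.50), Tnfrsf8, the receptor CD30 (-1.68 and 2.39), Duxbl1, a double homeobox gene (-2.22 and 1.61), and Notch1. Notch1, the receptor that holds progenitors undifferentiated, had 98.7 and 344 CPM in ESC days 35 and 28, and 173 and 51.4 CPM in iPSC days 35 and 28. None of these 4 differences between sources passed limma (adjusted p = 0.533 to 0.872).

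The same genes were looked up in the earlier libraries, which had no part in the classes, as the mean of day 25 minus that of day 18. Among all measured genes 8.38% were higher and 7.56% lower by at least 1. Of the 202 genes higher in ESC and lower in iPSC cells, 138 (68.3%) had been lower at day 25 than at day 18 and 1.0% higher. For genes lower in iPSC cells alone the share lower was 42.3%, and for genes higher in ESC cells alone 26.2%. Genes lower in both sources had 17.7% higher and 25.3% lower, and genes higher in both 13.7% each way. Gria2, in the class higher in ESC cells alone, had 3.14 CPM in the only ESC library of day 25 and averaged 95.6 CPM at ESC day 18. In iPSC cells it averaged 23.1 CPM at day 25 and 108 CPM at day 18.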

How the data were processed

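Sorted GFP+ cells were profiled by polyA RNA-seq with an Illumina stranded kit, per the labels' protocols. Trimmomatic 0.36, kallisto 0.42.5 and edgeR were used, with the build GRCm38.p4, per the submitters' processing notes. The deposited gene table of 32166 genes holds a transformed score that the authors named as CPM. Back-transformed as 2 to the square root of (value + 1), minus 1, it kept a constant ratio to the deposited TPM in 8489 of 8688 genes (97.7%, tolerance 0.001 log2). The transcript tables of estimated counts and of TPM that the authors deposited stop at 65535 transcripts, so 13069 genes are complete there. Library totals rebuilt from the tables run from 3866471 to 21889107 estimated counts.

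Differences were taken within each source on log2(CPM + 1), and classes used genes with at least 5 CPM in at least 2 of the 4 libraries. limma 3.58.1 (trend, R 4.3.3) was fitted on all 16 libraries for genes with at least 1 CPM in at least 2, with source and day as factors, or with 1 mean per source and day for the difference between sources. Each single library is then taken to vary like the replicated groups. edgeR 4.0.16 and DESeq2 1.42.0 on rounded gene sums (at least 10 counts in at least 2 libraries) were alternatives, with others in scaling, filter, pseudocount, fold, block and libraries left out. Floors are 3 counts per library and cover counting error only. The fits were tested on simulated data.

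The comparison, its members and the gene lists were chosen with earlier results of these data known. Named genes are a fixed set of photoreceptor landmarks, the 10 largest common gains and falls, the 6 largest each way in 1 source, the 4 largest opposite movers each way, up to 10 genes that limma called and up to 4 members of each list, without predicted gene models or small RNAs. The other 7 called genes and further genes, among them Stat3, Fos, Ttr, Gfap, Grm6, Isl1, Ddx3y and those of 1 library, were named after their values were seen, as were the day 25 baseline and the oligodendrocyte, astrocyte and stratified epithelium lists. Promoters are from RefSeq (GRCm38.p6). Some genes are not reported here.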

Additional observations from a re-analysis of the deposited data

Results flagged for a closer look

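One library held signal that none of the others did. In ESC day 35, 91 genes reached 5 CPM while staying under 1 CPM in each of the other 15 libraries, and these were outside the comparisons because the class filter and limma's filter both ask for 2 libraries.

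The day 35 minus day 28 difference was larger in ESC than in iPSC cells by limma (adjusted p under 0.05, Benjamini-Hochberg) in 17 genes. The differences of the differences, on the log2 scale, were 7.78 for Gpr17, 7.78 for Bcas1, 7.27 for Aqp4, 7.15 for Anxa1, 6.22 for Dsp, 5.90 for Krt7, 5.74 for Agt, 5.36 for Gsto1, 5.16 for Gjb2, 5.05 for Asprv1, 5.02 for Aplnr, 4.56 for Dsc2, 4.39 for Plxnb3, 4.12 for Il1rn, 4.03 for Pamr1, 3.87 for Gpr37l1 and 3.76 for Enpp6. Each rests on 1 library per source and day. Of the 17 genes, 15 had a median under 1 CPM over the 16 libraries, and 12 reached 5 CPM in 1 library only. With a filter of 5 CPM in 2 of the 4 libraries limma called 1 gene, Gsto1, and at a pseudocount of 0.1 it called 0.

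Other named genes and lists went in opposite ways in the only pair of each source. These contrasts did not pass limma for the genes and were not tested for the lists. In ESC and iPSC cells the differences were 5.17 and -2.35 for Sparcl1, 4.68 and -2.63 for Adcyap1r1, -2.71 and 2.50 for Nhej1, -1.68 and 2.39 for Tnfrsf8, -2.22 and 1.61 for Duxbl1, and -1.79 and 1.73 for Notch1. List medians were 1.24 and -1.47 for Müller glia, 1.27 and -1.17 for mesenchyme and vessel, 2.45 and -1.67 for the oligodendrocyte lineage, and 4.02 and -1.68 for astrocytes. Against day 25 in place of day 28, the iPSC medians of these lists were -0.75, 0.03, -0.09 and -0.05 in that order.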

How the results depend on the processing

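Class counts are given in the order higher in both, lower in both, ESC only higher, ESC only lower, iPSC only higher, iPSC only lower, ESC higher with iPSC lower, and ESC lower with iPSC higher. At a 1.5-fold step they were 238, 313, 1057, 1631, 739, 413, 422 and 258, at a 3-fold step 12, 18, 283, 188, 28, 85, 80 and 5, and at a minimum of 20 CPM 26, 38, 226, 493, 104, 103, 59 and 12. At a minimum of 1 CPM, 85 were higher in both, 1256 higher in ESC only and 385 opposite. In gene sums of TPM, 37 were lower in both, 203 lower in ESC only, 114 lower in iPSC only, 112 higher in ESC with iPSC lower and 11 the reverse. Against day 25, a baseline chosen after seeing the data, the counts were 152 higher and 150 lower in both, 1245 lower in ESC only, 419 and 452 higher and lower in iPSC only, 344 and 129. Of the 51 and 79 genes of the common classes, 34 and 37 stayed there against day 25, and 49 and 79 with TMM factors.

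Scaling moved the ESC split: 49.2% of genes past the step were higher, 59.2% with CPM rescaled to equal sums and 74.8% in gene sums of TPM, where the medians of all genes were 0.25 in ESC and 0.12 in iPSC cells, against -0.06 and 0.08. Of the named genes' differences under other settings, 576 stayed within counting error, 127 moved beyond it and 7 that had been past the 2-fold step changed sign, these 7 against day 25: Spp1 in ESC cells (0.90), and in iPSC cells Socs3 (-0.30), Gpr17 (0.62), Bcas1 (0.08), Sparcl1 (1.68), Aqp4 (1.75) and Agt (0.43).

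For day 35 against day 28, limma called 5 genes with no filter and 6 with 1 mean per source and day, DESeq2 called 7, and leaving out single libraries gave 0 to 101, with 101 reached without iPSC day 35. For the difference between sources the counts were 0 at a pseudocount of 0.1, 911 with no filter, 1 at 5 CPM in 2 of the 4 libraries, 8 with equal sums, 9 with TMM factors, 1 by edgeR, 7 by DESeq2, 0 from days 25 to 35 alone and 2 to 45 with single libraries left out: 18 without ESC day 25 or without iPSC day 21, 45 without ESC day 18 replicate 2, 2 without ESC day 18 replicate 1 or ESC day 21 replicate 2, 6 without ESC day 18 replicate 3 or ESC day 21 replicate 3, 8 without ESC day 21 replicate 1 or either iPSC day 18 library, and 7 without either iPSC day 25 library. Among the genes called by edgeR or DESeq2, only Gsto1 was also called by limma in its main setting. This difference could not be fitted without any of the day 28 and day 35 libraries. The labels tie replicate numbers to nothing shared. Same-numbered libraries correlated at 0 to 0.641 in their deviations from group means, not all over 0.1, and ESC day 21 replicate 3 correlated at 0.659 with iPSC day 18 replicate 2, so pairing was not assumed. With the number as a replicate block limma called 0 genes between days and 2, Gpr17 and Anxa1, between sources. The cause of these shifts was not tested. Depth limits low values most at day 28, where 1 count is worth 0.157 CPM in ESC and 0.213 CPM in iPSC cells.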
